A study of Drosophila melanogaster with 2 samples.

Results

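Cluster 5 is one of the clusters of larval brain cells that the authors' deposited cell table gives by number alone, with no cell type name. Its members were all cells of that table whose annotation was the number 5, which gave 283 of 5056 cells, 134 in the MeOH library and 149 in the fresh library. They were set against the 3130 cells of the 25 other clusters known by number alone (1577 MeOH and 1553 fresh cells), called other numbered neurons here, with clusters 1 and 31 left out. The series profiled single cells of Drosophila L3 larval brains in droplets and concerns where neurons express para, the voltage-gated sodium channel gene. The MeOH library held methanol-fixed cells pooled from 7 inbred lines of the DGRP panel (DGRP-761, DGRP-45, DGRP-639, DGRP-136, DGRP-502, DGRP-382 and DGRP-409), and the fresh library held cells of a hybrid based on DGRP-551. Strain and fixation changed together with 1 library each, so their effects cannot be told apart. Methanol fixation stands in the protocol of the fresh sample as well, and the groups follow the fixation field of the labels.

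A neuron of the insect brain takes much of its identity from its stem cell lineage and birth time, which are held by combinations of transcription factors such as homeodomain and zinc-finger proteins. Prospero, encoded by pros, is a homeodomain protein that ends the stem cell programme in newly made brain cells. The transmitter of a neuron can be read from the genes for its vesicular transporters and synthetic enzymes. VGlut loads glutamate, VAChT and ChAT serve acetylcholine, Gad1 makes GABA, and Vmat loads monoamines. In the larval brain, glutamate is also the transmitter of motor neurons.

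The cells of cluster 5 held 420484 UMIs (unique molecular identifiers, 1 per captured transcript) in the MeOH library and 938656 UMIs in the fresh library. The median UMI count per cell was 2901.5 (range 2059 to 14717) in the MeOH library and 6134 (range 3716 to 18615) in the fresh library. No cell of cluster 5 carried one of the 11 barcodes that both libraries shared. In each library, 3 cells of cluster 5 exceeded 2 times the median UMI count of the cluster, and no doublet caller was run. The median mitochondrial percent was 2.04% in MeOH cells and 1.32% in fresh cells of cluster 5, against 2.15% and 1.39% in the other numbered neurons. Levels below are CPM, the UMIs of a gene scaled to a common total over the summed cells. Intervals are exact at 95% and cover counting error alone.

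The deposited grouping was first checked against marker genes of cell types. The pan-neuronal RNA-binding gene elav was detected in 118 of 134 MeOH cells and 144 of 149 fresh cells of cluster 5, and its level was 792 CPM in MeOH and 544 CPM in fresh cells, against 775 and 546 CPM in the other numbered neurons. The glial factor repo had a UMI in 3 MeOH cells and in 0 of 149 fresh cells. The summed level of 11 glial markers was 97.5 CPM in MeOH and 68.2 CPM in fresh cells of cluster 5, against 96.9 and 73.3 CPM in the other numbered neurons. The 8 neuroblast markers summed to 54.7 and 37.3 CPM in cluster 5, against 95.2 and 44.6 CPM in the others. All 6 fat body and tracheal markers were at 0 UMIs in cluster 5, and 3 of 4 hemocyte markers were at 0 in each library. By these markers the cells were neurons, and no narrower name is given.

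Cluster 5 made up 7.83% of the numbered neurons in the MeOH library (134 of 1711 cells, exact interval 6.6 to 9.21%) and 8.75% in the fresh library (149 of 1702 cells, 7.45 to 10.2%). Among the 7 lines the share ran from 5.0% in DGRP-502 to 10.0% in DGRP-136, and the interval of every line overlapped that of every other. The cells of cluster 5 were somewhat shallower than other numbered neurons. Within the MeOH library the log2 difference in median UMIs per cell was -0.27 ± 0.16 (SD, n = 7 lines), lower in 7 of 7 lines, with p = 0.0156 by an exact two-sided sign-flip test over lines, which is the smallest p that 7 lines can give. The difference was -0.11 in the fresh library, which has no replicate. The lines came through 1 library, so this p covers the spread between lines within it.

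Against the pooled other numbered neurons, few genes were higher in cluster 5 and many were lower. A gene was called when summed CPM, on the log2(CPM + 10) scale, differed at least 2-fold from the other numbered neurons in the same direction in both libraries, and it was compared when the mean of the 2 groups reached 20 CPM in each library. Of 4076 genes compared, 12 were higher (0.294%) and 99 were lower (2.43%). Against single similar clusters, given further below, the counts of higher and lower genes lay closer together. The clusters were built from these same genes, so the values describe the cluster and carry no test. The median log2 ratio over all compared genes was -0.04 in both libraries. The last genes inside the limit were jim, with ratios of 1.02 in MeOH and 1.10 in fresh cells, and Rx, with 1.01 and 1.12. The first genes outside it were CG45071, with 0.96 and 0.97, and bi, with 1.11 and 0.90. Of the 12 higher genes, 8 were higher in 7 of 7 lines of the MeOH pool and 10 in at least 6 lines, and of the 99 lower genes 75 were lower in 7 of 7 lines. The lines are parts of the same MeOH cells that gave the calls, so this agreement was partly built in. No such count was made over all compared genes. Without clusters 3 and 33 among the other neurons, the lower genes numbered 49, of which 48 were among the 99, and jim, dati, NK7.1 and Rx were no longer at least 2-fold higher.

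**Figure D1:**
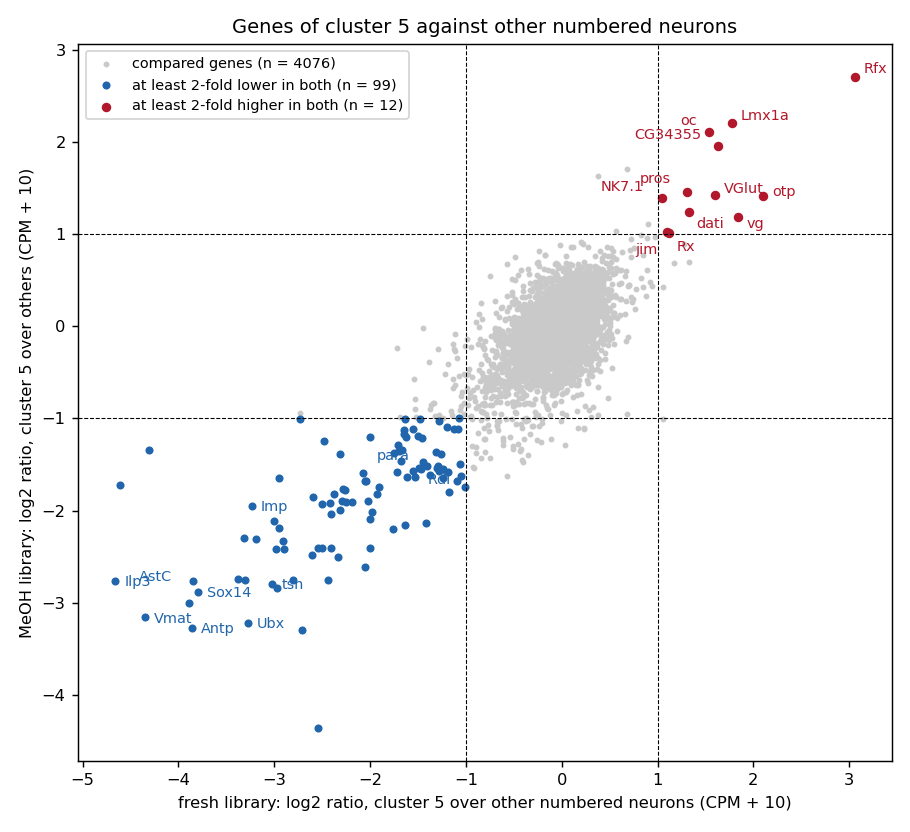
Each point is a gene, placed by its log2 ratio of cluster 5 over other numbered neurons in the fresh library (horizontal axis) and in the MeOH library (vertical axis), both of CPM + 10; dashed lines mark 2-fold. The 12 higher genes (red) are led by Rfx at the upper right, and the 99 lower genes (blue) include Antp, Ubx, Vmat and Imp.

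The 12 higher genes were Rfx, Lmx1a, CG34355, oc, VGlut, otp, pros, dati, vg, NK7.1, jim and Rx. Of these, 8 were on the lists of transcription factors, against 67 of all 4076 compared genes and 18 of the 99 lower genes. The genes pros and Rfx encode transcription factors as well but were not on those lists. In the Ensembl annotation of the dm6 assembly they are protein-coding genes, none of which overlaps another, although otp and Rx lie near each other on chromosome arm 2R. Positions are for example pros at 3R:11328480-11407627, Rfx at 3R:10361760-10378068, VGlut at 2L:2400295-2410662, jim at 3L:22789233-22835194, dati at 4:375640-395605, oc at X:8630159-8650681 and Lmx1a at 3L:12329232-12335901. NK7.1 at 3R:14329413-14372951 overlaps Dnaaf5 on the same strand, so reads of the pair may not be separable. In both libraries pros, jim, dati, VGlut and CG34355 were detected in most cells of cluster 5, while each of the other 7 was detected in fewer than 50% of them.

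Among the broadly detected genes, pros took the largest share of the RNA. It supplied 4.07% of all UMIs of cluster 5 in the MeOH library and 2.41% in the fresh library, against 1.48% and 0.975% in the other numbered neurons. Per cell of cluster 5 its share had a median of 3.35% (lowest 0%, highest 13.4%) in MeOH and 2.09% (0.0062% to 8.31%) in fresh cells, against medians of 0.641% and 0.293% in the other neurons. In the 7 lines, pros in cluster 5 had a lowest, median and highest level of 32516, 42451 and 63002 CPM, against 11942, 14987 and 21419 CPM in the other neurons of the same lines. The lines of the 2 groups did not overlap, and the log2 ratio was 1.49 ± 0.31 (SD, n = 7 lines). A high pros level was shared with other clusters: cluster 5 ranked 3 of 26 numbered clusters in MeOH and 7 of 26 in fresh cells, behind clusters 18 and 2 in both.

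The zinc-finger genes jim and dati were higher as well. The level of jim was 17922 CPM in MeOH and 12955 CPM in fresh cells of cluster 5, against 8829 and 6030 CPM in the other neurons, and it was detected in all 283 cells of cluster 5. In the MeOH lines its ratio was 1.05 ± 0.42 (SD, n = 7), higher in 7 of 7. Leaving out DGRP-409, DGRP-502 or DGRP-639 took jim just under 2-fold, with MeOH log2 ratios of 0.94, 0.98 and 0.99. The level of dati was 1103 CPM in MeOH and 829 CPM in fresh cells, against 462 and 324 CPM, and the ratio over lines was 1.19 ± 0.33, with no overlap between the groups of lines. CG34355, a gene known here by its number, had 461 and 255 CPM in cluster 5, against 112 and 75.7 CPM in the others. Of the 12 genes it had the most even ratio across lines, at 1.85 ± 0.20 (SD, n = 7). On the list of 8 newborn neuron genes, 4 were compared. Of these, pros and dati were at least 2-fold higher and none was at least 2-fold lower, although 1 lay below 0 in both libraries. The median log2 ratio of the 4 was 0.81 in MeOH and 0.77 in fresh cells. The newborn marker Hey had a UMI in 0 MeOH cells and in 9 of 149 fresh cells (6.04%), against 2.22% and 4.12% of the other neurons. It was thus below the others in MeOH and above them in fresh cells. The intervals of cluster 5, 0 to 2.72% and 2.80 to 11.2%, held the shares of the others, so neither direction is clear of counting error.

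**Figure D2:**
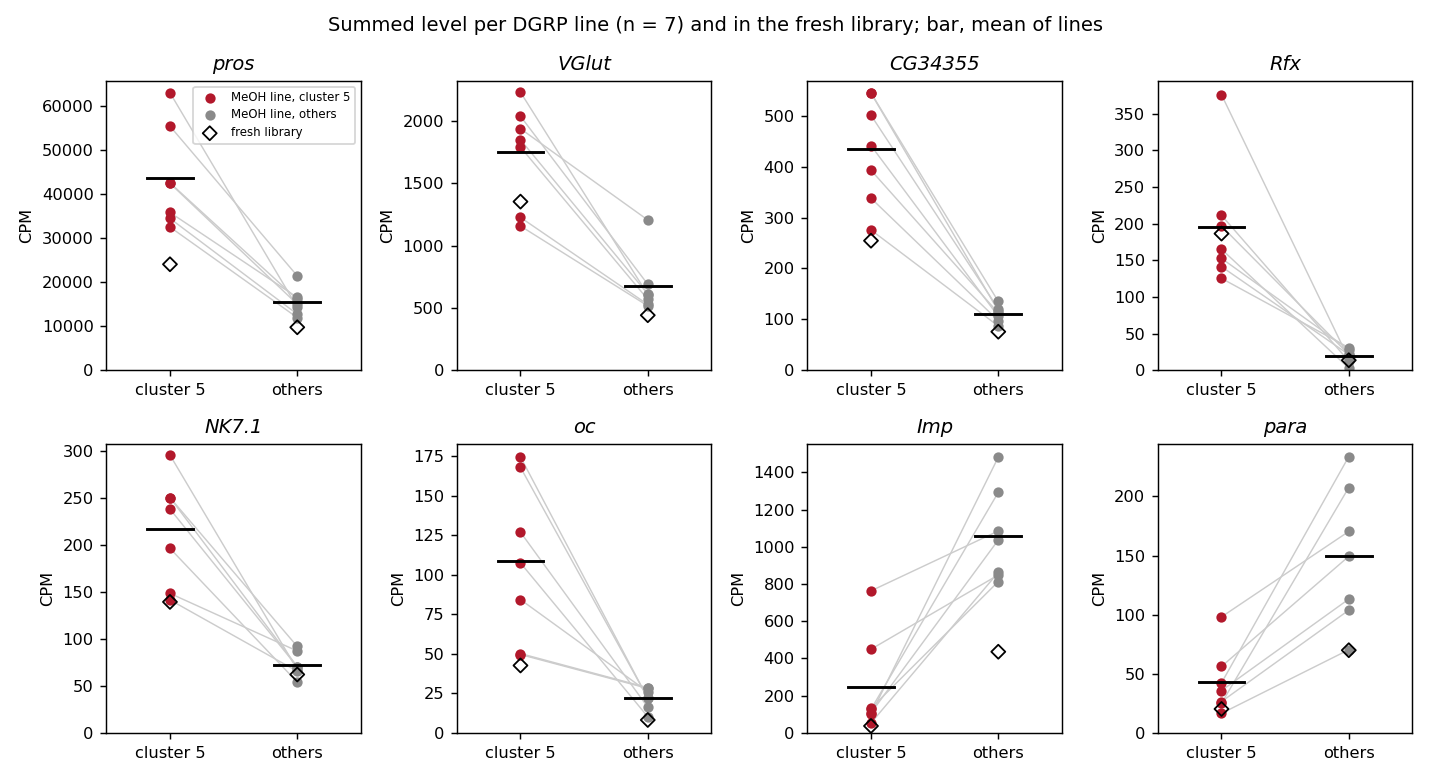
Summed level in CPM (linear axes from 0) of 8 genes in cluster 5 and in the other numbered neurons; filled points are the 7 lines of the MeOH pool, joined by line, bars are their means, and diamonds are the fresh library. For pros, CG34355, Rfx, NK7.1 and oc the lines of cluster 5 all lie above those of the other neurons, and for Imp they all lie below.

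Most cells of cluster 5 carried the glutamate transporter gene. VGlut stood at 1705 CPM (interval 1583 to 1835) in MeOH and 1353 CPM (1280 to 1430) in fresh cells of cluster 5, against 629 and 441 CPM in the other neurons. Across lines it ran from 1157 to 2231 CPM in cluster 5, against 516 to 1206 CPM in the others; the ranges overlapped because the other neurons of DGRP-382 reached 1206 CPM, although each line was higher in cluster 5. A UMI of VGlut was found in 89 of 134 MeOH cells and 109 of 149 fresh cells. With every cell thinned to 2000 UMIs, the share with VGlut was 61.2% in MeOH and 60.4% in fresh cells of cluster 5, against 26.1% and 19.0% in the other neurons, and 7.77% and 3.90% in glia (103 MeOH and 77 fresh cells named AST, ENS or CTX), which should lack the gene. Without thinning, 17.5% of MeOH and 20.8% of fresh glia held VGlut, at median depths of 4816 and 8822 UMIs. Cells that held VGlut had a mean of 8.06 UMIs in MeOH and 11.7 UMIs in fresh cells of cluster 5, against 8.26 and 12.1 UMIs in the other neurons. The medians over the same cells were 5 and 9 UMIs in cluster 5, against 4 and 5 UMIs. Only cluster 28 and, in MeOH, cluster 38, which has 3 cells there, stood above cluster 5 among the numbered clusters.

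VAChT gave 52.3 CPM in MeOH and 29.8 CPM in fresh cells of cluster 5, against 113 and 105 CPM in the other neurons, log2 ratios of -0.98 and -1.52, so it missed the 2-fold limit in MeOH. It was detected in 21 MeOH and 22 fresh cells, and after thinning in 9.70% and 6.71% of cells of cluster 5, against 17.9% and 15.7% in the other neurons and 0.971% and 0% in glia. ChAT had 40.4 and 25.6 CPM in cluster 5, against 32.6 and 40.2 CPM, log2 ratios of 0.24 and -0.50, so the cholinergic pair differed in direction in MeOH. VAChT overlaps ChAT on the same strand, so their reads may not be separable. Gad1 had 4 UMIs in MeOH and 1 UMI in fresh cells of cluster 5, and after thinning 0.746% and 0.671% of cells held it, against 7.61% and 5.99% of the other neurons. VGAT, the GABA transporter gene of the vesicles, had 45.2 and 27.7 CPM, against 44.6 and 37.3 CPM, and was detected in 19 MeOH and 24 fresh cells. Vmat, with 2 UMIs and 1 UMI, was among the 10 lowest genes, but only 3.49% of MeOH and 4.70% of fresh other neurons held it. Taking VGlut, VAChT or ChAT, and Gad1 or VGAT as 3 kinds, 68 of 134 MeOH cells (50.7%) and 77 of 149 fresh cells (51.7%) of cluster 5 held VGlut alone, against 19.4% and 15.1% of the other neurons. VAChT or ChAT alone was seen in 15 MeOH and 18 fresh cells, more than 1 kind in 27 and 32 cells, and no kind in 19 and 19 cells. Of the 8 motor neuron markers, 4 were compared; VGlut was higher and zfh1 lower.

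**Figure D3:**
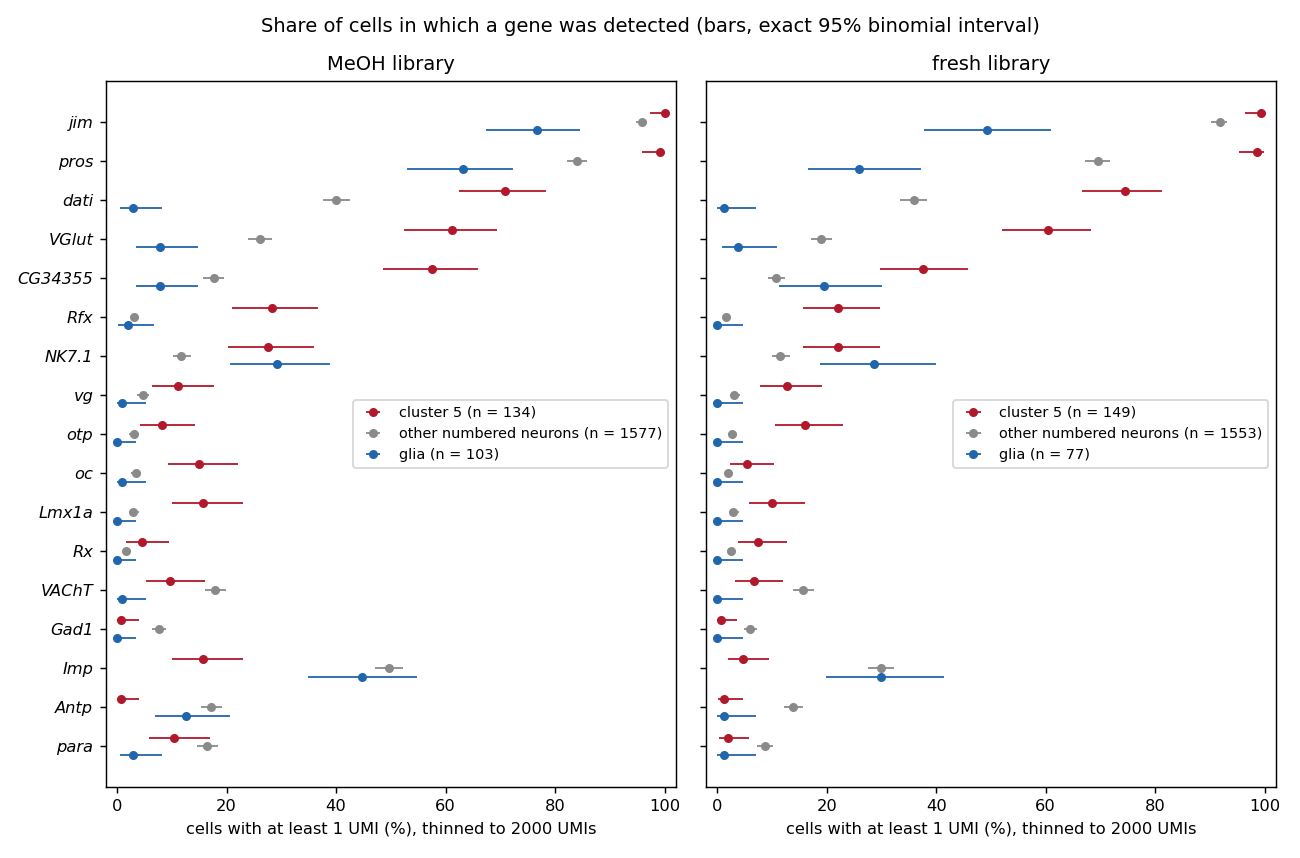
Share of cells with at least 1 UMI of each gene after thinning each cell to 2000 UMIs, in the MeOH library (left) and the fresh library (right), with exact 95% binomial intervals; red, cluster 5; grey, other numbered neurons; blue, glia. jim, pros, dati, VGlut and CG34355 were detected in more cells of cluster 5 than of other neurons, and Gad1, Imp and Antp in fewer.

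The remaining 7 higher genes each marked a minority of the cluster. Rfx, which encodes a winged-helix factor known for switching on cilium genes in sensory neurons, had the highest ratio of all compared genes. It reached 186 CPM in MeOH (interval 147 to 232) and 186 CPM in fresh cells (160 to 216) of cluster 5, against 19.9 and 13.6 CPM in the other neurons. Its lowest, median and highest line levels in cluster 5 were 125, 165 and 376 CPM, against 2.81, 21.3 and 30.7 CPM in the others, with no overlap. Cluster 5 had the highest Rfx level of all 26 numbered clusters in both libraries; the next were cluster 34, with 57.9 CPM in MeOH, and cluster 0, with 35.4 CPM in fresh cells. Yet Rfx was detected in only 42 MeOH and 60 fresh cells of cluster 5, with means of 1.86 and 2.92 UMIs in the cells that held it. After thinning, 28.4% and 22.1% of cells held it, against 3.11% and 1.61% of the other neurons and 1.94% and 0% of glia.

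The LIM-homeodomain gene Lmx1a had 119 and 108 CPM in MeOH and fresh cells of cluster 5, against 18 and 24.4 CPM, and was found in 26 and 22 cells. In 6 of 7 lines it was higher, and DGRP-502, with 9 cells, had none. Cluster 22 had 93.0 and 169 CPM of Lmx1a, so the gene was no mark of cluster 5 alone. The head-patterning homeodomain gene oc (orthodenticle) had 124 and 42.6 CPM, against 21.1 and 8.17 CPM, in 29 MeOH and 28 fresh cells, and was higher in 7 of 7 lines with no overlap. The homeobox gene NK7.1 had 207 and 140 CPM, against 72.9 and 62.2 CPM, also higher in 7 of 7 lines with no overlap. NK7.1 was no mark of cluster 5 alone either: after thinning 27.6% and 22.1% of cluster 5 held it, against 29.1% and 28.6% of glia and 11.7% and 11.5% of other neurons. The retinal homeobox gene Rx was sparse, with 14 and 44 UMIs in 10 MeOH and 18 fresh cells. It had 33.3 and 46.9 CPM, against 11.5 and 16.1 CPM, was higher in 4 of 7 lines, and was under 2-fold without DGRP-45, DGRP-409 or DGRP-761, with MeOH log2 ratios of 0.68, 0.88 and 0.88.

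The homeobox gene otp had 76.1 CPM in MeOH and 137 CPM in fresh cells of cluster 5, against 22.3 and 24.3 CPM. The selector gene vg, known from wing development, had 114 and 143 CPM, against 44.6 and 32.8 CPM. Single cells weighed on both in the MeOH library: 1 cell gave 40.6% of the otp UMIs and 1 cell gave 35.4% of the vg UMIs. Without its top cell the MeOH log2 ratio of otp was 0.80 instead of 1.42, and that of vg was 0.65 instead of 1.19. Leaving out DGRP-639 gave 0.77 for otp, and for vg, which was higher in 4 of 7 lines, leaving out DGRP-382 gave 0.84 and leaving out DGRP-639 gave 0.90. In the fresh library, no single cell gave as much, and the ratios without the top cell were 2.02 for otp and 1.70 for vg.

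The minority factors formed combinations within cluster 5 that recurred in both libraries. A first set joined vg, otp and Rfx. Of the 15 MeOH cells with vg, 13 held Rfx and 8 held otp, and of the 30 fresh cells with vg, 24 held Rfx and 23 held otp. Among the 119 cells without vg in each library, Rfx was found in 24.4% of MeOH and 30.3% of fresh cells, and otp in 5.04% and 3.36%. The homeobox gene scro, chosen after its values were seen, followed the set, with a UMI in 9 of 15 MeOH and 20 of 30 fresh cells with vg, against 13.4% and 14.3% of the cells without vg.

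A second set joined Lmx1a and Rx. Of the 26 MeOH cells with Lmx1a, 7 held Rx, and of the 22 fresh cells with Lmx1a, 14 held Rx, against 2.78% and 3.15% of the cells without Lmx1a. The forkhead gene fkh and the LIM-homeobox gene CG4328, both chosen after their values were seen, were found in 13 and 10 of those 26 MeOH cells and in 12 and 18 of those 22 fresh cells. All but 3 MeOH and 2 fresh cells with Lmx1a held VGlut, and none held VAChT in either library. The sets were not fully apart. No cell held both fkh and vg, and Rx was found in 0 of 15 MeOH and 4 of 30 fresh cells with vg. Lmx1a itself was found in 3 of 15 MeOH and 7 of 30 fresh cells with vg, against 19.3% and 12.6% of the cells without vg.

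The gene oc was not found with vg or Rx. Of 29 MeOH and 28 fresh cells with oc, none held vg in either library, and none held Rx. Lmx1a was found in 3 MeOH and 0 fresh cells with oc, and otp in 1 and 0. Rfx was found in 10 and 9 of the cells with oc, against 30.5% of MeOH and 42.1% of fresh cells without oc. The nuclear receptor gene svp, found in 11 MeOH and 23 fresh cells, was likewise never found with vg or otp. At these counts an absence allows a sizeable share. For oc, 0 of 28 fresh cells allows up to 12.3% by the exact interval, and the fewer cells with svp allow more. Of the 7 minority factors, 26 MeOH cells (19.4%) and 23 fresh cells (15.4%) held none, and 57 and 53 cells held a single one.

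**Figure D4:**
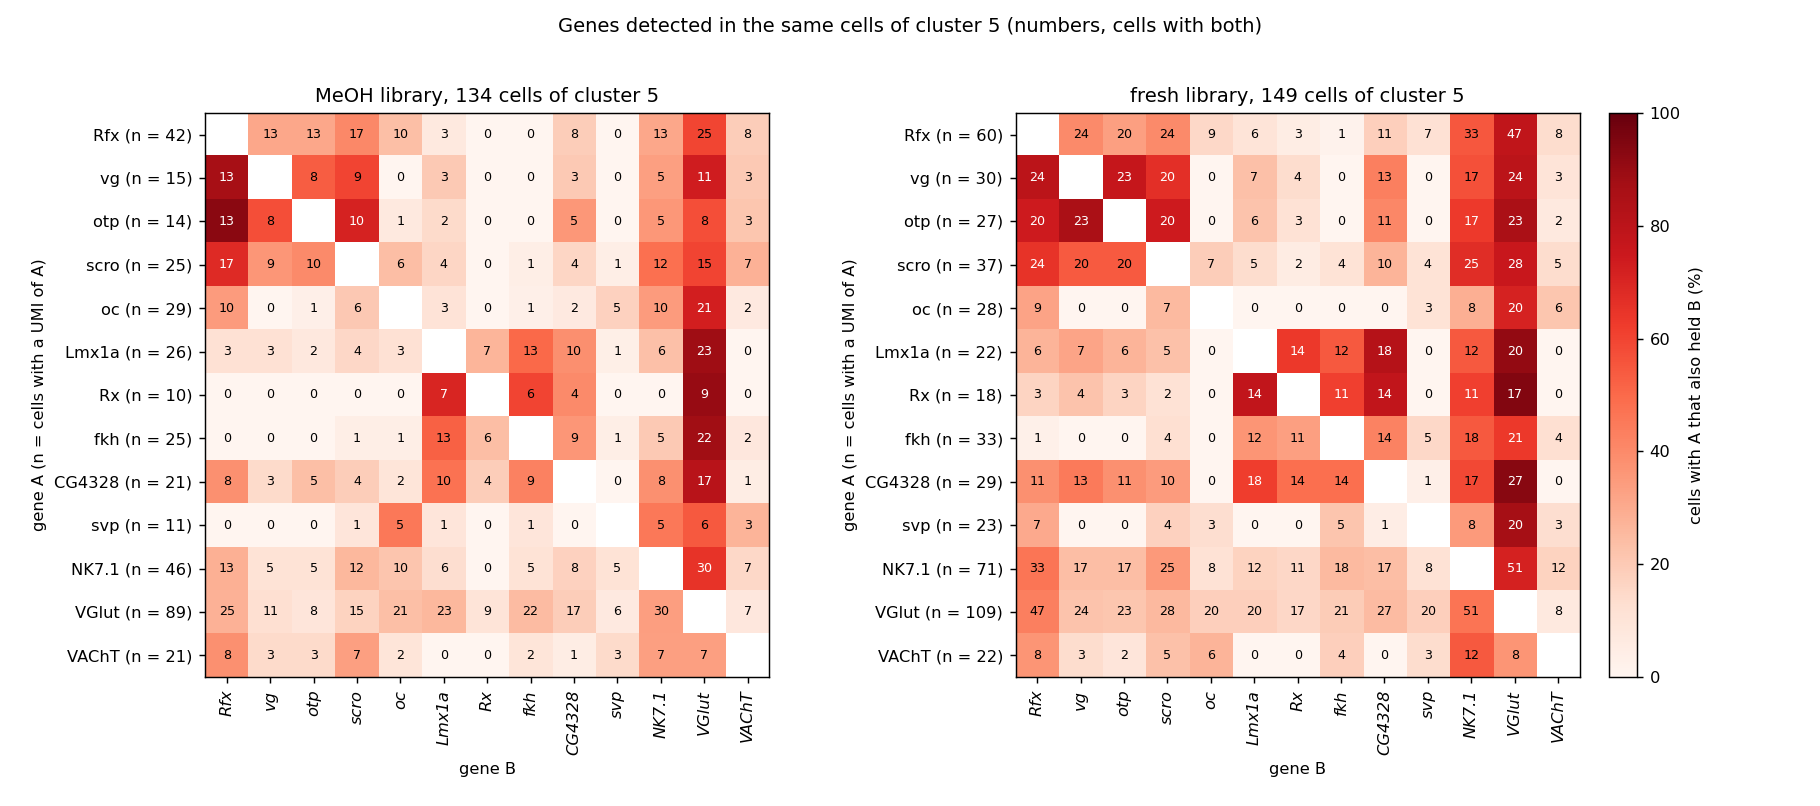
Genes found in the same cells of cluster 5, in the MeOH library (left) and the fresh library (right). Colour gives the percent of the cells with gene A (row) that also held gene B (column), and the numbers give the cells with both; vg, otp, scro and Rfx form one block, Lmx1a, Rx, fkh and CG4328 another, and oc shares 0 cells with vg.

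The deposited table also holds coarser groupings of the same cells. At resolution 0.2 all 283 cells of cluster 5 lay in a single group. At resolution 1, 113 MeOH and 126 fresh cells lay in the largest group, numbered 0, together with most of cluster 2 (216 MeOH and 149 fresh cells) and of cluster 12 (55 and 83 cells). A further 15 MeOH and 23 fresh cells lay in group 12, whose other members were 38 MeOH and 35 fresh cells of cluster 22 and 1 further fresh cell. At resolution 1.5, 113 MeOH and 135 fresh cells of cluster 5 lay in group 4 with 42 and 35 cells of cluster 22. The 15 MeOH cells of group 12 at resolution 1 came from 6 of the 7 lines. In the cells of group 12, vg had 894 CPM in MeOH and 869 CPM in fresh cells, against 14.4 and 19.9 CPM in the cells of the largest group. Likewise otp had 478 and 626 CPM, against 17.3 and 54.8 CPM, and Rfx 603 and 515 CPM, against 139 and 131 CPM. They held 43 of the MeOH and 118 of the fresh UMIs of vg, against 5 and 16 in the largest group, but fewer Rfx UMIs (29 and 70) than the largest group (48 and 105). The noncoding RNA gene CR43283 had 11149 and 7157 CPM, against 2413 and 1673 CPM.

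These cells had little of some other genes of the cluster. The gene fkh had 0 UMIs in both libraries, against 139 and 118 CPM in the largest group, and the homeobox gene Optix had 0 UMIs in MeOH and 1 UMI in fresh cells, against 136 and 117 CPM. The adhesion gene Fas2 had 187 and 29.5 CPM, against 880 and 448 CPM, and the late ecdysone-response gene Eip93F 229 and 14.7 CPM, against 597 and 303 CPM. VGlut did not part them: it had 1810 and 1296 CPM, against 1596 and 1363 CPM, with overlapping intervals. Cluster 22, their companion at the coarser setting, was also high in vg (878 and 596 CPM) but had 29.1 and 11.5 CPM of VGlut, 0 and 26.9 CPM of otp, and 11.6 and 11.5 CPM of Rfx. The coarser groups were made from these genes too, so the differences describe them and carry no test. Without these cells, 10 of the 12 genes stayed at least 2-fold higher in cluster 5, and otp and vg did not.

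**Figure D5:**
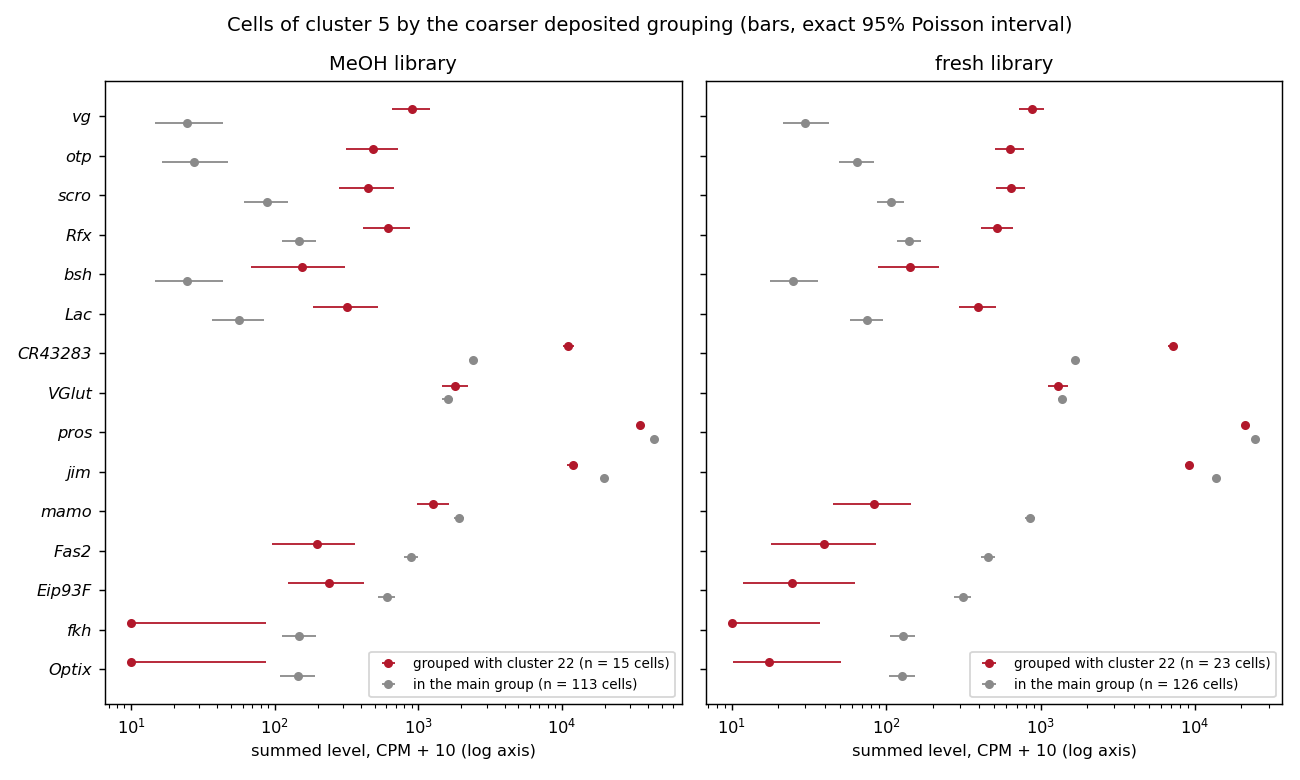
Summed level (CPM + 10, log axis) of 15 genes in the cells of cluster 5 that the coarser deposited grouping placed with cluster 22 (red; 15 MeOH and 23 fresh cells) and in those of the main group (grey; 113 MeOH and 126 fresh cells), with exact 95% Poisson intervals. vg, otp, scro, Rfx and CR43283 are higher in the red cells of both libraries, Fas2, fkh and Optix are lower, and VGlut overlaps.

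The genes that mark birth time in the brain were unevenly shifted. Imp, an RNA-binding protein gene high in early-born neurons, was low: 269 CPM in MeOH and 37.3 CPM in fresh cells of cluster 5, against 1065 and 436 CPM in the other neurons. Its line levels ran from 53.0 to 763 CPM with a median of 127 CPM in cluster 5, against 813 to 1481 CPM with a median of 1036 CPM in the others, without overlap, and DGRP-761 alone gave 70 of its 113 MeOH UMIs. Without DGRP-761 its MeOH log2 ratio was -2.93, against -1.95 with it. Imp was seen in 28 of 134 MeOH and 8 of 149 fresh cells. Syp, which opposes Imp in later-born neurons, was level, with 1617 and 1468 CPM in cluster 5, against 1544 and 1269 CPM. The zinc-finger gene chinmo, under the control of both, had 2528 and 1627 CPM, against 1622 and 1134 CPM, log2 ratios of 0.64 and 0.52, short of 2-fold but higher in 7 of 7 lines. The BTB zinc-finger gene mamo had 1838 and 734 CPM, against 3443 and 2146 CPM, and was lower in 5 of 7 lines. Of 10 birth-time genes compared, none was 2-fold higher in both libraries, and Imp alone was lower. Over all compared genes these shares were 0.294% and 2.43%.

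Genes of trunk identity were nearly missing from cluster 5. Antp, a Hox gene of the thorax, had 6 UMIs in MeOH, all in 1 cell, and 3 UMIs in fresh cells, or 14.3 and 3.20 CPM, against 224 and 181 CPM in the other neurons. Ubx, a Hox gene of the posterior thorax and abdomen, had 1 UMI in each library, against 105 and 97.2 CPM in the others. The trunk gene tsh had 3 UMIs in each, against 109 and 97.2 CPM. Both Hox genes compared were lower, and of all 8 Hox genes 5 had no UMI in MeOH and 3 none in fresh cells of cluster 5. Their summed level was 19.0 and 7.46 CPM, against 452 and 387 CPM.

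Neuropeptide genes were also low in summed level. Of 35 genes on that list 11 were compared. In both libraries 9 were at least 2-fold lower, against 2.43% of all compared genes, and none was higher, against 0.294%. The median log2 ratio was -2.29 in MeOH and -2.97 in fresh cells. CCAP and Ilp3, the crustacean cardioactive peptide and an insulin-like peptide, had 1 UMI each in MeOH and 1 and 6 UMIs in fresh cells, against 78.8 and 74.1 CPM in MeOH and 77.0 and 404 CPM in fresh cells of the other neurons. AstC had 0 and 2 UMIs, and 0 UMIs in MeOH allows up to 8.77 CPM by the exact interval. Few cells of the other neurons held these genes either. AstC was detected in 1.46% of MeOH and 1.09% of fresh cells there, against 0% and 1.34% of cluster 5. CCAP was detected in 1.59% and 1.35%, against 0.746% and 0.671%, and Ilp3 in 3.23% and 5.67%, against 0.746% and 3.36%. The summed levels of these genes in the other neurons thus came from a small share of the cells. In the MeOH library leaving out DGRP-502 brought the log2 ratio of CCAP to 0.00125, and leaving out DGRP-639 brought that of Ilp3 to -0.83. The summed level of all 35 was 295 and 173 CPM in cluster 5, against 3264 and 3223 CPM. Of 10 peptidergic cell markers, 7 were compared and 4 were lower, among them amon, which encodes a prohormone convertase.

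The other genes among the 10 lowest were Sox14, Fer1 and CG43689, with Vmat named above. Sox14, an ecdysone-induced factor needed for the pruning of neurites, had 26.2 and 11.7 CPM in cluster 5, against 257 and 291 CPM, and 11 UMIs in each library. Fer1, a bHLH factor, had 4.76 and 7.46 CPM, against 89.5 and 112 CPM. CG43689 had 4 UMIs in MeOH and 0 UMIs in fresh cells, against 147 and 138 CPM. These 10 genes were lower in at least 6 of 7 lines.

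Transcription factors were called in both directions. Of 27 homeobox factors compared, 5 were higher (Lmx1a, NK7.1, Rx, oc and otp) and 9 lower, among them Lim1, hth, mirr, vvl and zfh1. The cofactor gene hth had 478 and 460 CPM in cluster 5, against 1522 and 1102 CPM. Of 40 bHLH, zinc-finger and other factors compared, 3 were higher (dati, jim and vg) and 9 lower, among them ct, fru, kn and nvy. The T-box gene bi, just outside the limit, had 1482 and 691 CPM, against 682 and 365 CPM, and was higher in 7 of 7 lines. Lists for functional parts of the neuron held no higher gene. Over all compared genes only 0.294% were higher, so at these list sizes their absence says little. The share of all compared genes that were lower was 2.43%. Of 57 recognition genes compared, 9 were lower, including side and several dpr genes, whose proteins bind partners on other neurons, and the median log2 ratio was -0.49 and -0.62. Of 24 transmitter receptors, GluRIA, GluRIB and Rdl were lower. Rdl, a GABA receptor subunit, had 152 and 113 CPM, against 461 and 335 CPM, and was lower in 7 of 7 lines without overlap. Of 20 synaptic genes, Frq1, whose neighbour Frq2 is a close copy that may share reads with it, and Sytbeta were lower, with list medians of -0.45 and -0.33. The microtubule protein gene futsch had 262 and 123 CPM, against 811 and 547 CPM. All 84 ribosomal protein genes compared stayed within 2-fold, with medians of -0.13 and -0.17.

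The sodium channel gene para was low in cluster 5. It had 45.2 CPM in MeOH (interval 27.2 to 70.6) and 20.2 CPM in fresh cells (12.2 to 31.6), from 19 UMIs each, against 147 and 69.9 CPM in the other numbered neurons. In the lines its lowest, median and highest level in cluster 5 was 16.5, 35.8 and 98.1 CPM, against 70.3, 149 and 234 CPM in the others. Each line was lower in cluster 5, with a log2 ratio of -1.65 ± 0.62 (SD, n = 7), and the ranges overlapped through DGRP-761, without which the MeOH level was 30.4 CPM. The gene lies at X:16455027-16533096 and overlaps Cnx14D on the same strand. A UMI of para was found in 16 of 134 MeOH cells (11.9%) and 15 of 149 fresh cells (10.1%), against 27.3% and 25.6% of the other neurons. After thinning the share was 10.4% (interval 5.83 to 16.9%) and 2.01% (0.417 to 5.77%) in cluster 5, against 16.5% and 8.69% in the other neurons. In thinned glia it was 2.91% and 1.30%. The interval of cluster 5 in thinned fresh cells, with para in 3 of 149, held the share of glia, so that share cannot be told from background. In thinned MeOH cells the interval lay above the share of glia and held that of the other neurons. It overlapped the interval of glia, 0.605 to 8.28%. Without thinning, 3.88% of MeOH and 1.30% of fresh glia held para. These shares lay below the unthinned intervals of cluster 5, 6.98 to 18.7% in MeOH and 5.74 to 16.1% in fresh cells. But they rested on 4 of 103 MeOH glia and 1 of 77 fresh glia. Their own intervals, 1.07 to 9.65% and 0.0329 to 7.02%, overlapped those of cluster 5. Of 12 voltage-gated channel genes compared, para alone was at least 2-fold lower in both libraries and none was higher, while 11 of the 12 lay below 0 in both. Of all 4076 genes compared, 1606 lay below 0 in both, 2.43% were at least 2-fold lower and 0.294% higher. Cluster 5 ranked 19th and 18th of 26 numbered clusters for para.

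By the correlation of log2(CPM + 10) over the 4076 genes, the clusters most like cluster 5 by the mean of both libraries were cluster 2 (r = 0.960 in MeOH and 0.965 in fresh cells), cluster 7 (0.951 and 0.963) and cluster 8 (0.950 and 0.961). In fresh cells clusters 12 and 14 (0.964 each) stood above clusters 7 and 8, and in MeOH cluster 0 (0.951) was level with cluster 7. Cluster 34, with the lowest mean over the libraries, had 0.702 and 0.828. Against cluster 2, 20 genes were higher in cluster 5 (0.51%) and 22 lower (0.561%). The leading ones were Rfx, with 186 and 186 CPM against 8.60 and 2.98 CPM, and the zinc-finger genes disco-r and disco, with Ubx, Antp and tsh at the other end. In cluster 2 Ubx had 291 and 306 CPM. Against cluster 7, 22 genes were higher (0.56%), led by Lmx1a, disco-r and TfAP-2, and 39 lower (0.993%), led by Antp, HLH3B and Poxn. Against cluster 8, 17 were higher (0.434%), led by Lmx1a, Rfx and VGlut, and 21 lower (0.536%), led by Fer1, CG9016 and nvy. VGlut had 121 and 204 CPM in cluster 8, and Fer1 1168 and 1397 CPM there.

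The ratios of MeOH over fresh cells in cluster 5 were set beside the same ratios in the other numbered neurons. Of 4335 genes compared on the same scale, 224 were at least 2-fold higher in MeOH cells (5.17%) and 101 lower (2.33%), against 2.29% and 0.393% of genes in the other numbered neurons, a group with more cells. Of the 224, 69 were also at least 2-fold higher in the other neurons and 222 were above 0 there. Of the 101, 7 were also at least 2-fold lower there and 97 were below 0. The highest were the mitochondrial rRNA mt:lrRNA, with 4359 CPM in MeOH and 199 CPM in fresh cells of cluster 5 and a log2 ratio of 4.38, against 3.71 in the other neurons, and Peritrophin-15a, CG14300, pre-rRNA:CR45845 and CG43085. The lowest was the heat-shock gene Hsp70Bc, which has near-identical copies that may share its reads, with 35.7 CPM in MeOH and 449 CPM in fresh cells of cluster 5, a log2 ratio of -3.33, against -1.98 in the other neurons, followed by CG6891, stv, CG11555 and Pc. Among genes that mark the cluster, Imp was 2.56 higher in MeOH cells on the log2 scale (1.27 in the other neurons), oc 1.35 higher (0.78), pros 0.76 higher (0.60), and Rfx -0.01 (0.34). With 1 library per group these differences have no replicate check.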

How the data were processed

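The members and gene lists were chosen with earlier results of these data known. The deposited matrices hold counts of UMIs per gene and cell barcode; per the submitters' processing notes Cell Ranger, Seurat and dm6 were used, with versions not given in the sources used here. Mitochondrial content is a percent in the deposited table, and its embedding coordinates are a score without a unit, not used here. Cluster numbers and lines are the authors' deposited annotation, per the file headers. Counts were summed over cells per library, or per line, and scaled to CPM. Ratios used a pseudocount of 10 CPM, a mean level of at least 20 CPM and a limit of 2-fold in both libraries. Cells were thinned once to 2000 UMIs with a fixed seed, which left out 0 cells. No doublets were removed.

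Named genes were the 20 with the highest smaller ratio of the 2 libraries (at least 20 UMIs in each, no cell above 20% of them; 9 genes met this), the 10 lowest, listed transcription factors above 2-fold, transmitter, birth-time, Hox and peptide genes, para, the genes apart from the 3 most similar clusters, and the 5 highest and 5 lowest between libraries. Of 17473 gene symbols, 13849 were in the Ensembl annotation, which gave the positions of all 26 genes looked up. On simulated counts of cluster 5 against the others with 4040 genes compared, 100% of genes with a log2 change of 2 or -2, 90% with 1.5, 82% with -1.5 and 0 of 3840 unchanged genes passed the limit. The simulated counts held counting error alone, with no spread between cells or lines, and the changed genes were drawn from those of at least 50 CPM. They therefore cannot give the rate of false calls in the real cells, or the recovery of sparser genes. Alternatives in pseudocount, filter, scaling, comparison cells and lines were computed. Python 3.11.15 with numpy 2.4.6, scipy 1.17.1, pandas 2.3.3 and matplotlib 3.10.9 was used.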

Additional observations from a re-analysis of the deposited data

Results flagged for a closer look

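Over the 7 lines of the MeOH pool, 17 measures of cluster 5 were examined for a line far from the others, and chance alone marks about 1 in 20 such groups. A single one stood out: Rfx in DGRP-639, with 376 CPM in cluster 5, while the next line had 211 CPM. DGRP-639 contributed 16 cells of the cluster and 21 of its 78 MeOH UMIs of Rfx. Without DGRP-639 the MeOH log2 ratio of Rfx was 2.43, against 2.71 with it.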

How the results depend on the processing

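With a pseudocount of 50 CPM, 7 genes were higher and 44 lower in cluster 5 in both libraries, and 65 differed between MeOH and fresh cells; with 1 CPM the last count was 542, against 325 in the text. A mean level of at least 5 CPM, or no filter, gave 19 higher and 152 lower genes, and a level of at least 50 CPM gave 42 lower genes and 157 differing between libraries. Without clusters 3 and 33, 49 genes were lower, and against all other cells without clusters 1 and 31, 22 were higher and 155 lower. Of all cells of the table, cluster 5 made up 4.94% in MeOH and 6.36% in fresh cells. Leaving out 1 line at a time gave 10 to 12 higher genes, 91 to 101 lower genes, 333 to 376 genes differing between libraries, a difference in UMIs per cell of -0.30 to -0.23 (smallest p with 6 lines 0.03125), a MeOH share of 7.29 to 8.17% and a MeOH level of para of 30.4 to 52.1 CPM. It moved the MeOH log2 ratio of CCAP between -3.29 and 0.00125, the last without DGRP-502. The cause was not tested.

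Of the 12 higher genes, Rfx, Lmx1a, CG34355, VGlut and pros passed under all 20 settings tried; the others passed under 12 to 17. Weighting all other clusters equally, or leaving out clusters 3 and 33, each took jim, dati, NK7.1 and Rx under 2-fold. Thinning to 2000 UMIs did so for oc, dati, jim and Rx, and a mean of CPM per cell for dati, vg, NK7.1 and jim. Leaving out the cells grouped with cluster 22, a setting chosen after seeing the data, took otp and vg under it. No paired analysis was possible because MeOH and fresh are 1 library each; the test of UMIs per cell was paired within line. Levels under about 20 UMIs, as for para, Rx and the genes near 0, carry wide counting intervals, and no value between libraries has a replicate.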

Other observations

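The long noncoding RNA noe had 50501 CPM in MeOH and 78460 CPM in fresh cells of cluster 5, against 33388 and 49205 CPM in the other numbered neurons, and it was higher in 7 of 7 lines without overlap. The ELAV family gene fne had 10588 and 5008 CPM, against 5955 and 3056 CPM, also higher in 7 of 7 lines. The dosage compensation RNA roX1, which is made in males, was detected in 84 of 134 MeOH cells (62.7%) and 93 of 149 fresh cells (62.4%) of cluster 5, against 60.8% and 64.8% of the other neurons. These genes were chosen after their values were seen.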
